A study of Mus musculus with 20 samples.

Results

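The genes described are 8 matrix metalloproteinases (Mmp2, Mmp3, Mmp8, Mmp9, Mmp10, Mmp12, Mmp13 and Mmp14) and their inhibitors Timp1 and Timp3, 10 of the 22180 genes measured in abdominal mouse skin. They were taken by name, and each was read by 1 probe set that carried its symbol alone. Skin came from Zfp36 fl/fl K14 cre mice (knockout), in which a Cre recombinase under the keratin 14 promoter removes floxed Zfp36 in keratinocytes, and from zfp36 fl/fl littermates without Cre (control), so that both genotypes carried the floxed gene. Each genotype was given imiquimod, a Toll-like receptor 7 agonist that causes psoriasis-like inflammation in mice, or a mock preparation on the skin for 5 consecutive days, and skin was taken 4 hours after the last dose. The 4 groups of knockout imiquimod, knockout mock, control imiquimod and control mock held 5 mice each, with 1 Affymetrix array per mouse. No source used here gives strain, age or the composition of the mock preparation. By this design, cells other than keratinocytes are expected to keep Zfp36 in the knockout, and this was not measured by cell type.

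Matrix metalloproteinases are zinc-dependent proteases that cut collagens, other matrix proteins and many cytokines. Most are made as inactive precursors, and the tissue inhibitors of metalloproteinases (TIMPs) block the active enzymes. In skin, fibroblasts are a main source of Mmp2, Mmp3 and Mmp14, neutrophils store Mmp8 and Mmp9 in their granules, macrophages make Mmp12, and migrating keratinocytes make Mmp10 in wounds. Zfp36 encodes tristetraprolin, a protein that recognises AU-rich stretches of transcripts and speeds their degradation.

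Of the 10 genes, 5 lie in 1 stretch of chromosome 9 in the order Mmp13, Mmp12, Mmp3, Mmp10 and Mmp8, a stretch known for proximal AP-1 elements, sites bound by Fos and Jun dimers. The RefSeq promoter table (GRCm38.p6) held windows of 250 bases before and 50 after the start for 8 of the 10 genes, 9 windows in all because Mmp12 has 2 starts. The AP-1 motif TGACTCA was searched on both strands, where its reverse complement reads TGAGTCA. It was present for 4 genes, at position -35 from the start in Mmp13, -46 in Mmp3, -63 in Mmp10 and -44 at 1 of the starts of Mmp12. Of all 32851 windows in the table, 5.2% held it. The windows of Mmp8, Mmp14, Timp1 and Timp3 did not hold these letters, and Mmp2 and Mmp9 were not examined. The 120 bases before the start are shown for the 4 genes with the motif and for Mmp8 and Timp1, which rose most in the arrays below. Capitals mark the motif and each sequence runs 5′ to 3′.
Mmp13, chr9:7272394-7272513, plus strand: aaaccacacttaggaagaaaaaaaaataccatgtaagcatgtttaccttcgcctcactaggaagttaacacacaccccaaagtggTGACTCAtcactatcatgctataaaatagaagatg
Mmp3, chr9:7445702-7445821, plus strand: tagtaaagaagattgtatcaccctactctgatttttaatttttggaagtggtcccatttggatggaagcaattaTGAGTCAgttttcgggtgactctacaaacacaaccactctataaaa
Mmp10, chr9:7502222-7502341, plus strand: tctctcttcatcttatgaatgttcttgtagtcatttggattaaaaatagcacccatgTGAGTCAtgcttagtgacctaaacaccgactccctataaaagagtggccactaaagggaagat
Mmp12, chr9:7347254-7347373, plus strand: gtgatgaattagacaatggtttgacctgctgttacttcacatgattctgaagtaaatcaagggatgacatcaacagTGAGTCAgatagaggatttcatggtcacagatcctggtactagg
Mmp8, chr9:7558309-7558428, plus strand: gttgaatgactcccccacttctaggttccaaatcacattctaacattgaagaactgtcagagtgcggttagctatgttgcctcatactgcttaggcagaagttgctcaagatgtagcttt
Timp1, chrX:20870046-20870165, plus strand: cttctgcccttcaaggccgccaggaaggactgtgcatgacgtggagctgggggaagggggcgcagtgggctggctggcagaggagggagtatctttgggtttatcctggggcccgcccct
Of the 4 genes with the motif, Mmp13 and Mmp3 rose with imiquimod in knockouts, and Mmp10 and Mmp12 passed no test. Timp1 and Mmp8 rose without these letters in their windows. This is a description of letters, not of bound sites.

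All values are on a scale taken as log2, on which a difference of 1 is a doubling. The arrays had medians between 4.94 and 5.04, and the median standard error of a difference between groups was 0.11. The deposited values carry no detection call that was used here, so the fold change of a dim gene is uncertain. Mmp13, with a mean of 4.05 over the 20 arrays, was the 1 gene of the set among the dimmest 30% of genes. In mock skin Mmp8 was about as dim (means 4.22 in knockouts and 4.04 in controls). Timp1 was little brighter there (4.54 and 4.44), so the rises of both start from low values. Zfp36 was lower in every knockout array than in every control array of the same treatment, between 5.47 and 7.41 in knockout imiquimod skin against 7.68 and 8.40 in control imiquimod skin. In mock skin it lay between 3.47 and 7.12 in knockouts against 7.22 and 7.74 in controls. In limma over all genes neither difference passed (adjusted p = 0.221 and 0.999). Keratinocyte markers were bright, with a mean over 9 genes between 9.76 and 10.73 in the 20 arrays.

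**Figure D1:**
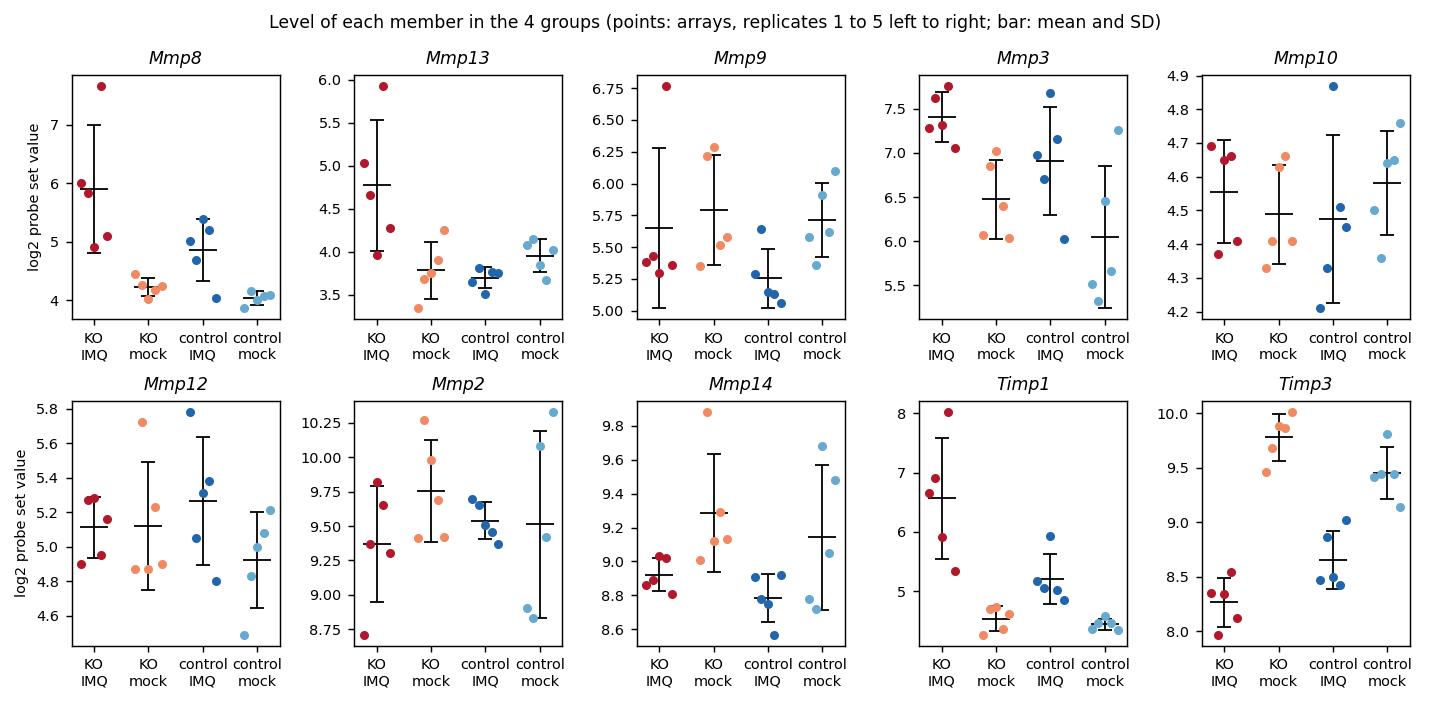
Log2 probe set value (y axis) of each of the 10 genes in the 4 groups (x axis), with 1 point per array and the mean and SD as bars; IMQ is imiquimod. Timp1 and Mmp8 sat highest in knockout imiquimod skin, with 1 array at 8.02 and 7.67, and Timp3 sat lowest there, between 7.97 and 8.54.

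Imiquimod changed 5 of the 10 genes in knockout skin and 1 in control skin in limma with Benjamini-Hochberg adjustment over all genes. In knockout skin Timp1, Mmp8, Mmp13 and Mmp3 rose and Timp3 fell. In control skin Timp3 fell and no gene of the set passed upwards. The 4 rises stand beside 11.1% of all genes that rose in knockout skin and the 1 fall beside 9.71% that fell. In control skin the counts of 0 and 1 stand beside 6.47% of all genes higher and 4.37% lower, and 5 of the 10 had an unadjusted p under 0.05, against 23.9% of all genes. The same shares apply to the counts of other lists below. These counts come from a fit in which the 4 groups share 1 estimate of spread. The SD of Timp1 was 1.02 in knockout imiquimod skin, against 0.42 in control imiquimod and 0.09 in control mock skin. With the control groups fitted alone, Timp1 and Mmp8 also rose there (limma adjusted p = 0.0147 and 0.0291), and 1952 of all 22180 genes passed. The median difference of the 10 genes was 0.03 in knockouts and -0.04 in controls, against -0.002 and -0.004 over all genes. In whole skin fewer cells of a type and less RNA per cell cannot be told apart.

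**Figure D2:**
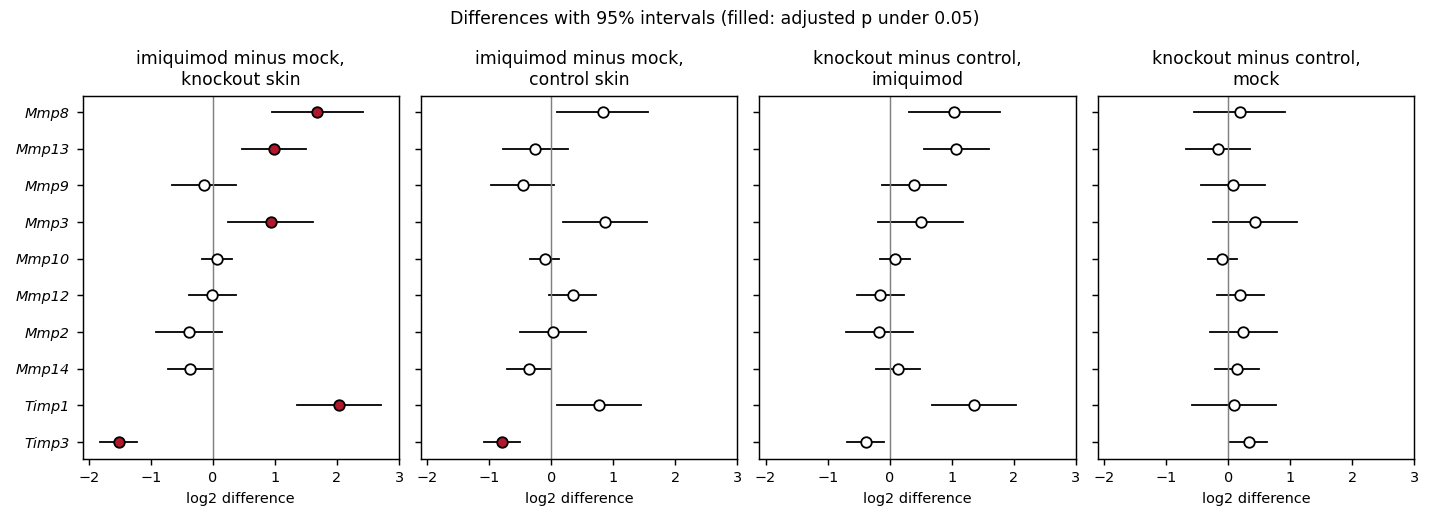
Log2 difference (x axis) of each gene (y axis) in 4 comparisons, with 95% intervals from limma; filled points passed an adjusted p of 0.05. Filled points are Mmp8, Mmp13, Mmp3, Timp1 and Timp3 for imiquimod in knockouts and Timp3 for imiquimod in controls, and no point is filled between genotypes.

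The inhibitors moved in opposite directions. Timp1, a secreted inhibitor induced in wounds and inflammation, read 6.66, 6.91, 5.91, 8.02 and 5.34 in knockout imiquimod skin, against 4.27, 4.70, 4.74, 4.36 and 4.62 in knockout mock skin. Every imiquimod array lay above every mock array, and replicate 4 stood highest. The rise was 4.08-fold (log2 difference 2.03 ± 0.32, SE, n = 5 per group, limma adjusted p = 0.00013). In control skin Timp1 read 5.18, 5.06, 5.93, 5.02 and 4.86 with imiquimod, against 4.37, 4.46, 4.58, 4.46 and 4.34 with mock, again without overlap. This difference of 0.77 ± 0.32 (SE, n = 5 per group) did not pass limma over all genes (adjusted p = 0.143). Its exact permutation test, two-sided, gave p = 0.00794, below which groups of this size cannot go.

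Timp3, which is bound to the matrix and also inhibits ADAM17, the protease that sheds TNF, fell in both genotypes. It read 8.35, 7.97, 8.34, 8.54 and 8.12 in knockout imiquimod skin, against 9.46, 9.68, 9.88, 9.86 and 10.01 in knockout mock skin. The gap between the groups was wider than either group, and the level was 2.86-fold lower with imiquimod (log2 difference -1.51 ± 0.14, SE, limma adjusted p = 2.48e-07, n = 5 per group). In control skin it read 8.47, 8.86, 8.50, 8.42 and 9.02 with imiquimod, against 9.41, 9.44, 9.81, 9.44 and 9.14 with mock. These arrays did not overlap either, and the difference was -0.79 ± 0.14 (SE, limma adjusted p = 0.00075, n = 5 per group). The fall passed with each of the 20 arrays left out in turn in both genotypes.

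The order of Timp3 from high to low was knockout mock (9.78), control mock (9.45), control imiquimod (8.65) and knockout imiquimod (8.26). The neighbours at each end overlapped, and neither genotype comparison passed limma (0.33, adjusted p = 0.999 in mock; -0.39, adjusted p = 0.311 under imiquimod). The response in knockouts minus that in controls was -0.72 ± 0.20 (SE, unadjusted p = 0.00187), and this difference of responses did not pass over all genes (limma adjusted p = 0.476).

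Among the collagenases, Mmp8, the enzyme of neutrophil granules, read 6.01, 5.83, 4.91, 7.67 and 5.10 in knockout imiquimod skin, against 4.45, 4.25, 4.01, 4.17 and 4.24 in knockout mock skin. The groups did not overlap, and the rise in Mmp8 was 3.20-fold (a log2 difference of 1.68 ± 0.35, SE, limma adjusted p = 0.00171, n = 5 per group). In control skin it read 5.01, 4.69, 5.38, 5.20 and 4.03 with imiquimod, against 3.86, 4.16, 4.00, 4.07 and 4.09 with mock. There 4 imiquimod arrays lay above all mock arrays and replicate 5 lay among them. The difference of 0.83 ± 0.35 (SE, n = 5 per group) did not pass (limma adjusted p = 0.148).

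Mmp13, the main interstitial collagenase of rodents, read 5.03, 4.66, 3.96, 5.93 and 4.27 in knockout imiquimod skin, against 3.34, 3.68, 3.75, 3.90 and 4.25 in knockout mock skin. The groups overlapped, with imiquimod replicate 3 below mock replicate 5, and the rise in Mmp13 was 1.98-fold (a log2 difference of 0.99 ± 0.25, SE, limma adjusted p = 0.00709, n = 5 per group). In control skin it read 3.65, 3.81, 3.51, 3.76 and 3.75 with imiquimod, against 4.08, 4.15, 3.84, 3.67 and 4.02 with mock. These control groups overlapped, and the imiquimod arrays were not above the mock ones (log2 difference -0.26, 95% interval -0.78 to 0.26, limma adjusted p = 0.618).

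Mmp3 (stromelysin 1), which cuts many matrix proteins and activates other precursors, read 7.28, 7.62, 7.32, 7.76 and 7.05 in knockout imiquimod skin, against 6.07, 6.85, 7.02, 6.40 and 6.04 in knockout mock skin. The groups did not overlap by a narrow margin (7.05 against 7.02), and the rise was 1.91-fold (log2 difference 0.93 ± 0.33, SE, n = 5 per group, limma adjusted p = 0.0476). In control skin Mmp3 read 6.98, 6.70, 7.68, 7.16 and 6.03 with imiquimod, against 5.52, 5.33, 6.46, 5.66 and 7.26 with mock. That difference was of like size (0.86 ± 0.33, SE, n = 5 per group) and did not pass (limma adjusted p = 0.0990), with replicate 5 the lowest imiquimod array and the highest mock array. The call in knockouts held in 7 of the 20 fits that left out 1 array (adjusted p between 0.0162 and 0.112), and was lost with a robust prior variance and with quantile normalization (0.0579 and 0.0540).

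Mmp10 (stromelysin 2) lay between 4.37 and 4.69 in knockout imiquimod skin and between 4.33 and 4.66 in knockout mock skin. In controls it lay between 4.21 and 4.87 with imiquimod and between 4.36 and 4.76 with mock. All 4 groups overlapped, and the 95% interval of the imiquimod difference ran from -0.17 to 0.30 in knockouts and from -0.34 to 0.13 in controls. Mmp12, the macrophage elastase, read 4.90, 5.27, 5.28, 4.95 and 5.16 in knockout imiquimod skin, against 4.87, 5.72, 4.87, 5.23 and 4.90 in knockout mock skin. In controls it read 5.78, 5.05, 5.31, 5.38 and 4.80 with imiquimod, against 4.49, 4.83, 5.00, 5.08 and 5.21 with mock. The groups overlapped in both genotypes, with differences of -0.01 (95% interval -0.38 to 0.37, limma adjusted p = 0.990) in knockouts and 0.34 (-0.04 to 0.72, adjusted p = 0.269) in controls. Of 10 macrophage markers 3 rose with imiquimod in knockouts and 4 in controls, with median differences of 0.14 and 0.66.

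The gelatinases cut denatured collagen. Mmp9, the gelatinase of neutrophils and activated macrophages, read 5.38, 5.43, 5.30, 6.77 and 5.36 in knockout imiquimod skin, against 5.35, 6.22, 6.29, 5.52 and 5.58 in knockout mock skin. Apart from replicate 4 the imiquimod arrays lay at the low end of the mock range or below it. In control skin Mmp9 read 5.29, 5.64, 5.15, 5.13 and 5.06 with imiquimod, against 5.58, 5.36, 5.91, 5.62 and 6.10 with mock. The differences were -0.14 (95% interval -0.65 to 0.37) in knockouts and -0.46 (-0.97 to 0.05) in controls, and neither passed limma (adjusted p = 0.766 and 0.272). Mmp8 and Mmp9, whose products are both stored in neutrophil granules, had imiquimod differences of 1.68 and -0.14 in the same knockout arrays. Over the 20 arrays, the r of their deviations from the group means with 12 neutrophil markers was 0.83 and 0.82. With 10 fibroblast markers it was 0.15 and 0.70. The part of either cell type in these values was not tested.

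Mmp2, the gelatinase of fibroblasts, read 8.71, 9.37, 9.82, 9.65 and 9.30 in knockout imiquimod skin, against 9.41, 10.27, 9.98, 9.69 and 9.42 in knockout mock skin. In controls it read 9.70, 9.65, 9.51, 9.46 and 9.37 with imiquimod, against 8.90, 8.83, 10.08, 9.42 and 10.33 with mock. The groups overlapped in both genotypes, and the control mock group was the widest (SD 0.68, against 0.14 in control imiquimod). The differences of -0.38 (95% interval -0.92 to 0.15) in knockouts and 0.03 (-0.51 to 0.56) in controls did not pass limma (adjusted p = 0.349 and 0.973).

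Mmp14, the membrane-anchored protease that activates the Mmp2 precursor, read 8.86, 8.89, 9.03, 9.02 and 8.81 in knockout imiquimod skin, against 9.01, 9.88, 9.12, 9.29 and 9.13 in knockout mock skin. In controls it read 8.91, 8.78, 8.75, 8.57 and 8.92 with imiquimod, against 8.78, 8.72, 9.68, 9.05 and 9.48 with mock. In knockouts 3 imiquimod arrays lay below all mock arrays and the other two at their low end, and in controls replicate 4 lay below them and the other 4 within their range. The genotypes had nearly equal differences of -0.36 ± 0.17 in knockouts and -0.36 ± 0.17 in controls (SE, n = 5 per group). Neither passed limma (adjusted p = 0.147 and 0.206). The mean of 10 fibroblast markers lay between 7.98 and 8.49 in knockout imiquimod, 8.12 and 8.81 in knockout mock, 8.13 and 8.25 in control imiquimod and 7.93 and 8.91 in control mock skin. Control mock replicates 5 and 3 were the highest of their group for Mmp2, Mmp14 and this list, and the part of fibroblast content in these values was not tested.

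Between genotypes no gene of the set passed limma, where 0.546% of all genes passed under imiquimod, 0.00902% in mock skin and 0.018% for the difference of the responses. Under imiquimod the largest differences were those of Timp1, Mmp13 and Mmp8, each higher in knockouts. At an unadjusted p under 0.05 there were 4 of the 10 genes under imiquimod (10% of all genes), 1 in mock skin (3.19%) and 3 for the difference of the responses (6.75%). In mock skin the differences between genotypes ran from -0.17 (Mmp13) to 0.43 (Mmp3).

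Mmp13 was 2.11-fold higher in knockout imiquimod skin (4.77 ± 0.76) than in control imiquimod skin (3.70 ± 0.12, SD, n = 5 each). Every knockout array lay above every control array (3.96 to 5.93 against 3.51 to 3.81), with an exact two-sided permutation p = 0.00794. Over all genes it came close to the threshold without passing (log2 difference 1.07 ± 0.25, SE, limma adjusted p = 0.0550). In mock skin the knockout minus control difference of Mmp13 was -0.17 (95% interval -0.69 to 0.35). The response was larger in knockouts by 1.24 ± 0.35 (SE, unadjusted p = 0.00211), which did not pass over all genes (limma adjusted p = 0.488).

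Timp1 was 2.56-fold higher in knockout imiquimod skin (6.57 ± 1.02) than in control imiquimod skin (5.21 ± 0.42, SD, n = 5 each). In 3 knockout arrays it lay above the highest control value of 5.93, and in replicates 3 and 5 below it (5.91 and 5.34). The log2 difference of 1.36 ± 0.32 (SE) did not pass limma (adjusted p = 0.0607), and its exact two-sided permutation p was 0.0238 (n = 5 each). Mmp8 was 2.06-fold higher, and its groups overlapped (log2 difference 1.04 ± 0.35, SE, limma adjusted p = 0.261, exact two-sided permutation p = 0.0794). The responses of Timp1 and Mmp8 were larger in knockouts by 1.26 ± 0.46 and 0.85 ± 0.50 (SE), and neither passed (limma adjusted p = 0.625 and 0.802).

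In knockout imiquimod skin, replicate 4 was the highest of its group for Mmp3, Mmp8, Mmp9, Mmp13 and Timp1, and also for Timp3 (8.54), which fell with imiquimod. In the same array the mean of 12 neutrophil markers was 6.08, against 4.85 to 5.07 in the other 4 arrays of that group. The list's range was 4.25 to 4.54 in knockout mock skin, 4.51 to 4.90 in control imiquimod skin and 4.20 to 4.39 in control mock skin. Of these markers 6 rose with imiquimod in knockouts and 2 in controls, among them the chemokine receptor gene Cxcr2 (2.48 and 2.03) in both. Csf3r, the receptor for the growth factor of granulocytes, rose in knockouts (1.60, adjusted p = 0.000325). Ly6g, a defining surface marker of mouse neutrophils added after its value was seen, lay at 0.41 there (adjusted p = 0.221). The rest of the list without a call in knockouts is added in the same way. Ltf, Mpo, Elane, Ngp and Camp lay at -0.68, -0.10, -0.03, 0.09 and 0.13 (limma adjusted p between 0.310 and 0.855). Without replicate 4 the imiquimod differences in knockouts were 1.24 for Mmp8, 0.70 for Mmp13 and 1.67 for Timp1 (limma adjusted p = 0.000901, 0.0116 and 9.43e-05), and that of Mmp9 was -0.42 (adjusted p = 0.125). Without it the genotype differences under imiquimod were 0.60 for Mmp8, 0.78 for Mmp13 and 0.995 for Timp1 (adjusted p = 0.517, 0.0927 and 0.124). Replicate 4 was also the highest of its group for fibroblast markers (8.49). It was the lowest for macrophage markers (7.53), skeletal muscle genes (7.96) and fat genes (7.13). The part of neutrophil number or of other tissue in these values was not tested.

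Muscle and fat genes also ran with knockout imiquimod skin. The mean of 12 skeletal muscle genes lay between 7.96 and 8.74 there, against 8.89 and 9.73 in knockout mock, 8.74 and 9.71 in control imiquimod and 8.67 and 10.05 in control mock skin. With imiquimod 8 of these 12 genes and 8 of 9 fat genes fell in knockouts, and 0 of 12 and 1 of 9 fell in controls. At an unadjusted p under 0.05 there were 1 of 12 and 3 of 9 in controls. The 1 muscle gene there was Myh2, a myosin heavy chain, which rose in both genotypes (1.18 in knockouts and 1.33 in controls, limma adjusted p = 0.00139 and 0.000829). With both lists as covariates the imiquimod differences in knockouts were 1.15 for Mmp8 and 0.65 for Mmp13, which did not pass limma (adjusted p = 0.0978 and 0.214). In the same fit Mmp3 was at 1.68, above its 0.93 without the covariates (adjusted p = 0.00216), Timp1 at 1.68 and Timp3 at -1.57 (adjusted p = 0.0101 and 9.48e-06). Mmp2 was at 0.32, against -0.38 without them, and passed in neither fit. In controls Mmp3 passed with the covariates (0.90, adjusted p = 0.0466). The difference of the Mmp3 responses was then 0.79 (adjusted p = 0.722), against 0.07 without them (adjusted p = 0.992). The amount of muscle and fat in the samples and the response of these genes cannot be told apart by this fit.

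**Figure D3:**
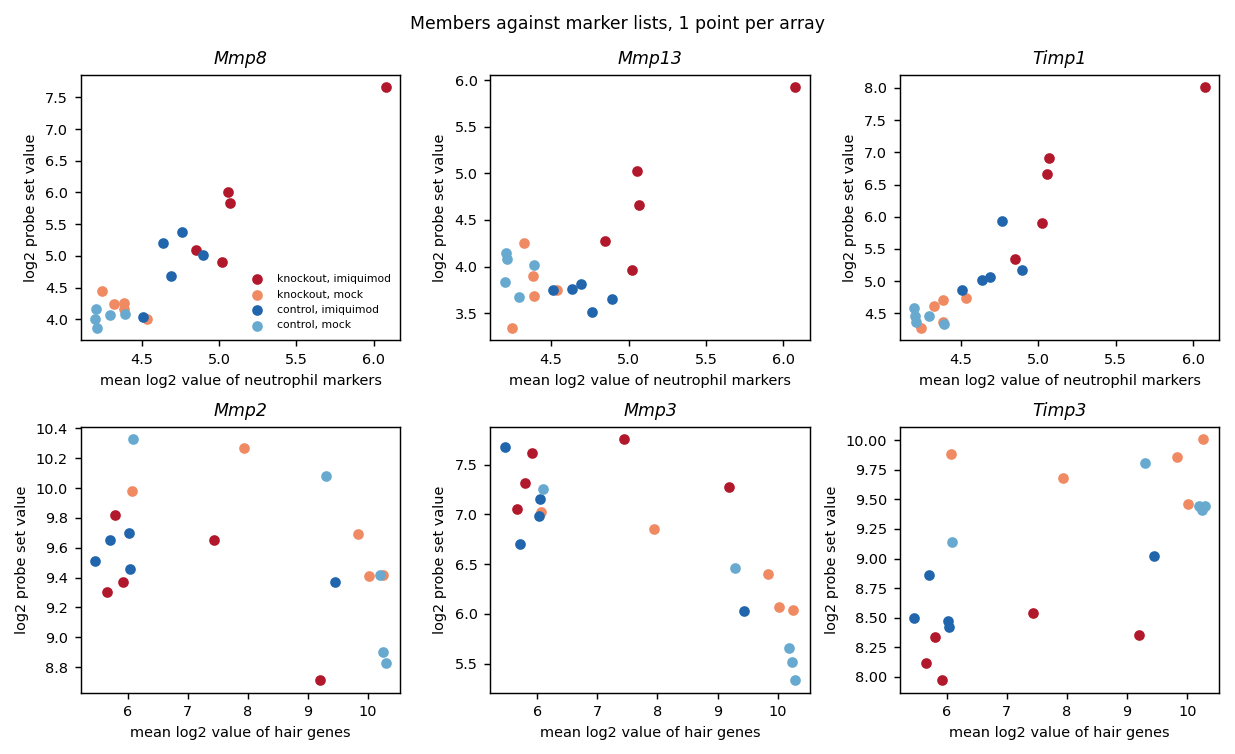
Log2 probe set value (y axis) of 6 genes against the mean log2 value of a marker list (x axis) in the 20 arrays, coloured by group: neutrophil markers in the upper row and hair genes in the lower row. The knockout imiquimod array with the highest neutrophil mean (6.08) is also the highest for Mmp8, Mmp13 and Timp1. Arrays with low hair means mostly have higher Mmp3. Knockout imiquimod replicates 1 and 4 lie apart, with high Mmp3 (7.28 and 7.76) at hair means of 9.19 and 7.44.

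A second source of spread ran with the hair list, 23 measured hair shaft and follicle genes that follow the hair cycle. Their mean was 6.09 in control mock replicate 5, against 9.30 to 10.29 in the other control mock arrays, and 9.45 in control imiquimod replicate 5, against 5.46 to 6.04 in the others of its group. In knockouts it was 9.19 and 7.44 in imiquimod replicates 1 and 4, against 5.66 to 5.92 in the others, and 6.07 and 7.94 in mock replicates 3 and 2, against 9.84 to 10.26. Within their groups, Mmp2 and Mmp3 were highest in control mock replicate 5, Mmp3 was lowest in control imiquimod replicate 5 and Mmp2 was lowest in knockout imiquimod replicate 1. In knockout mock skin the highest Mmp2, Mmp3 and Mmp9 arrays were replicates 2 and 3. Knockout imiquimod replicate 5, with the lowest hair mean of its group (5.66), had the lowest Mmp3 there (7.05). Within groups the r with the hair list was -0.69 for Mmp2 and -0.75 for Mmp3. With the fibroblast list it was 0.91 and 0.81. Which list this spread follows was not tested.

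When hair genes entered the fit as a covariate, the imiquimod difference of Mmp3 was 0.42 in knockouts and 0.18 in controls (limma adjusted p = 0.244 and 0.761). That of Mmp2 in knockouts was -0.75, which passed (adjusted p = 0.0103). Timp3 was at -1.39 and -0.63, Timp1 at 2.05 and Mmp8 at 1.72 in this fit, with the same calls. Mmp13 and Timp1 passed between genotypes under imiquimod in it (1.05 and 1.35, adjusted p = 0.0233 and 0.0311). Without the array of each group farthest in hair genes, Mmp3 rose with imiquimod in both genotypes, by 1.10 in knockouts and 1.39 in controls (adjusted p = 0.00403 and 0.000694), and Mmp13 and Timp1 did not pass between genotypes (adjusted p = 0.201 and 0.233). The hair list follows treatment as well as the array, with a median imiquimod difference of -2.03 in knockouts and -2.94 in controls and 0 of 23 genes past limma in either. At an unadjusted p under 0.05 there were 8 and 23 of them. The covariate therefore also carries part of the treatment.

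On chromosome 9, genes that rose lay among genes that passed no test. With Mmp1b, Mmp1a, Mmp27, Mmp20 and Mmp7 included, 10 genes of this stretch were measured, of which 3 rose and 1 fell with imiquimod in knockouts and 0 passed in controls, where limma gave 3 an unadjusted p under 0.05. Over all genes 11.1% rose and 9.71% fell in knockouts, and 6.47% rose and 4.37% fell in controls. For 23.9% of all genes limma gave an unadjusted p under 0.05 in controls. Mmp8 and Mmp3 rose on either side of Mmp10 and Mmp1a, whose differences were 0.07 and 0.14 (limma adjusted p = 0.760 and 0.324). Mmp27, next to Mmp8, fell by 0.61 (adjusted p = 0.0420). Mmp1a and Mmp1b, related genes whose probe sets may share signal, had means of 2.46 and 2.42 over all arrays, and neither passed in either genotype.

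**Figure D4:**
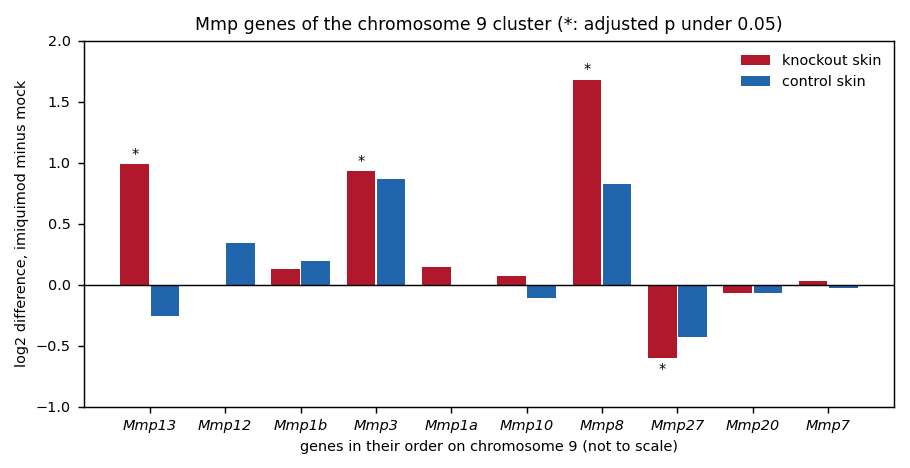
Log2 difference of imiquimod minus mock (y axis) for 10 Mmp genes in their order on chromosome 9 (x axis, not to scale), in knockout and control skin; stars mark an adjusted p under 0.05. Mmp13, Mmp3 and Mmp8 are starred upwards and Mmp27 downwards, all in knockout skin.

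Other genes of matrix turnover were counted in the same way. Each count of imiquimod responses here and in the next paragraphs stands beside 11.1% of all genes higher and 9.71% lower in knockouts. In controls the shares were 6.47% higher and 4.37% lower, and 23.9% at an unadjusted limma p under 0.05. Of 14 other metalloproteinase genes 1 rose in knockouts, Mmp19 (0.96, adjusted p = 0.00294), an enzyme also found in keratinocytes, and 1 fell, Mmp27; none of the 14 passed limma in controls, where 4 had an unadjusted p under 0.05 and the smallest was that of Mmp23 (-0.46, adjusted p = 0.0725). Of 4 other inhibitors, Timp2 and Reck, a membrane-anchored inhibitor, fell in knockouts by 0.64 and 0.60 (adjusted p = 0.00535 and 0.0143), and 0 of 4 passed limma in controls, where 2 had an unadjusted p under 0.05. The median difference of these 4 was -0.37 in knockouts and -0.07 in controls.

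The plasminogen system, whose product plasmin cuts metalloproteinase precursors, had 2 of 6 measured genes higher and 1 lower in knockouts. Plaur, the urokinase receptor, rose by 0.95 and Serpinb2, a plasminogen activator inhibitor of keratinocytes and macrophages, by 1.25, while Plat, tissue plasminogen activator, fell by 0.57 (adjusted p = 0.00825, 0.000498 and 0.00323). In controls Serpinb2 rose (0.98) and Plat fell (-0.44), and Plaur lay at 0.08 (adjusted p = 0.909).

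ADAM proteases shed membrane proteins, and 2 of 9 rose and 1 fell in knockouts. Adam8, a protease of myeloid cells, rose by 1.44 and Adam17 by 0.48, while Adam19 fell by 0.39 (adjusted p = 0.000167, 0.00729 and 0.00252). In controls Adam8 rose (0.76) and Adam10, the main sheddase of Notch, fell (-0.28). Of 12 ADAMTS proteases, which cut proteoglycans and process procollagens, 2 rose and 4 fell in knockouts, with Adamts1 at 0.63 and Adamts6 at -0.85. In controls 1 rose and 2 fell, with Adamts1 at 0.41 and Adamts10 at -0.61. An unadjusted limma p under 0.05 was found for 6 of the 12 in knockouts (31.2% of all genes) and 7 in controls (23.9%). The median difference of the 12 was -0.275 in knockouts and -0.378 in controls.

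Matrix substrates had 1 of 13 higher and 4 lower in knockouts and 4 lower in controls. An unadjusted limma p under 0.05 was found for 6 of the 13 in knockouts (31.2% of all genes) and 7 in controls (23.9%). Tnc, encoding tenascin C, a matrix protein of wounds, rose by 1.93 in knockouts (adjusted p = 0.00337). Fn1, encoding fibronectin, was at -1.20 in knockouts and -1.10 in controls, and Col1a1 at -0.93 and -1.06, all 4 past the test. Fibroblast markers outside these lists had 1 of 10 lower in knockouts and 2 of 10 lower in controls, with the matrix gene Dpt lower in both (-0.96 and -0.62).

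Of 15 inducers of metalloproteinase genes and AP-1 or ETS factors, 6 rose in knockouts and 3 in controls. An unadjusted limma p under 0.05 was found for 8 of the 15 in knockouts (31.2% of all genes) and 6 in controls (23.9%). Il1a, an interleukin-1 cytokine of keratinocytes, rose in both (2.63 and 2.90), as did Junb, an AP-1 subunit (0.70 and 0.45). Il1b and Tnf rose with imiquimod in knockouts (3.09 and 0.98). They were the 2 of the 15 higher in knockout than in control imiquimod skin (2.83 and 0.70, limma adjusted p = 0.00186 and 0.0286). Over all genes 0.546% passed in that genotype comparison. In controls Il1b lay at 0.81 and Tnf at 0.35 (adjusted p = 0.236 and 0.136).

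The genes whose profiles over the 20 arrays were most like those of the 5 responding genes were named by Pearson's r as a measure of likeness, with the r of the deviations from the group means after it. For Timp1 they were Itpk1 (0.96, 0.85), Csf3r (0.95, 0.86) and Clec4d (0.95, 0.91). For Mmp8 they were Timp1 itself (0.95, 0.85), Csf3r (0.94, 0.86) and Clec4d (0.94, 0.89), so 2 of the 3 names were those of Timp1. Mmp13 was most like Retnlg (0.91, 0.87), Ifitm1 (0.91, 0.85) and Mcemp1 (0.90, 0.81). Mmp3 was most like Il13ra1 (0.95, 0.95), Fth1 (0.94, 0.89) and Ifitm3 (0.93, 0.91). Timp3 was most like Tsc22d1 (0.96, 0.81), Pja2 (0.96, 0.70) and Nectin3 (0.95, 0.66), with the lower values inside groups. Within groups the closest pairs among the 10 genes were Mmp8 with Timp1 (r = 0.85) and Mmp2 with Mmp14 (r = 0.81). The arrays share treatment and tissue composition, and these values are descriptions.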

How the data were processed

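RNA from 20 skin samples was purified with Trizol and columns. An input of 200 ng went into the WT PLUS labelling kit for Affymetrix arrays, per the labels' protocols. Each array's deposited table holds 41345 values, taken as log2 from their range of 1.41 to 13.33. The log base, summarisation, normalization and software used by the authors were not stated in the labels or headers. The platform table gave 23521 probe sets 1 symbol, 1814 several and 16010 none. The brightest probe set stood for each of 22180 genes.

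limma 3.58.1 in R 4.3.3 fitted 1 mean per group over all 20 arrays (16 residual degrees of freedom), with two-sided tests and Benjamini-Hochberg adjustment over 22180 genes at 0.05. Exact permutation compared single genes. The fit was tested on simulated data, and no outcome of that test is reported here. Array number limits the precision. Nothing in the labels pairs mice across groups.

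The 10 genes, lists and alternatives were chosen with earlier results of these data known. All 10 were named. Of other lists, the 2 largest rises and falls past the threshold per comparison, or the smallest p, could be named, with the 3 genes most like each responder. Alternatives changed the arrays, block, prior variance, weights, normalization, probe sets, dim genes or tissue covariates.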

Additional observations from a re-analysis of the deposited data

Results flagged for a closer look

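Mmp9 in knockout imiquimod skin had 1 array far above the other 4. Replicate 4 read 6.77, against 5.30 to 5.43 in the others, and this gap was wider than a Dixon test at the 95% level allows for 5 values (critical value 0.71). Among 40 groups of 5 arrays tested (10 genes in 4 groups) it was the 1 that passed, and chance alone passes about 1 in 20. The same array had the highest neutrophil marker mean of the 20 arrays (6.08). It also had the highest fibroblast marker mean of its group (8.49).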

How the results depend on the processing

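With 1 array left out in turn, the number of the 10 genes called ranged from 4 to 5 for imiquimod in knockouts, from 1 to 3 for imiquimod in controls and from 0 to 2 for genotype under imiquimod, and was 0 for genotype in mock and for the difference of responses. For imiquimod in controls (1 gene called), 3 were called with the groups of that comparison alone, namely Timp3, Timp1 and Mmp8. There 2 were called with array weights, with muscle and fat lists as covariates, and without the 4 arrays farthest in hair genes. For genotype under imiquimod (0 called), 2 were called with array weights and when hair genes entered as a covariate; these were Mmp13 and Timp1. For imiquimod in knockouts (5 called), 3 were called with muscle and fat lists as covariates, where Mmp8 (1.15, adjusted p = 0.0978) and Mmp13 (0.65, adjusted p = 0.214) were lost and Mmp3 grew to 1.68 (adjusted p = 0.00216), against 0.93 without them. The causes were not tested. Without control mock replicate 5, Mmp3 passed in controls (1.17, adjusted p = 0.00915), as it did without control imiquimod replicate 5 (1.08, adjusted p = 0.0283). Without knockout imiquimod replicate 4, Mmp8 and Timp1 passed in controls (adjusted p = 0.0181 and 0.0386). Timp1 passed between genotypes under imiquimod without control imiquimod replicate 3 or knockout imiquimod replicate 3 or 5 (adjusted p = 0.0308, 0.0390 and 0.00647), and Mmp13 without knockout imiquimod replicate 3 or 5 (0.0119 and 0.0313). The exact permutation test, unadjusted, also gave p under 0.05 for other differences that did not pass limma. For imiquimod these were Mmp14 in knockouts (permutation p = 0.0238) and Mmp8 and the fall of Mmp9 in controls (0.0317 each). Between genotypes they were Timp3 under imiquimod (0.0397) and in mock skin (0.0476). Leaving out the dimmest 30% of genes removed Mmp13 from the limma test. No called difference changed sign, and 42 estimates that passed in neither setting did.

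Same-numbered arrays showed no steady pairing over all genes. The r of their deviations lay between -0.71 and 0.52, with 14 of 30 pairs over 0.1, and 4 of 20 arrays were closest to their own number. Arrays far off in hair genes weigh on these values, so this check cannot exclude a pairing. With the replicate number as a block, 4 of the 10 genes were called for imiquimod in knockouts and 1 in controls, and Mmp3 (0.93, adjusted p = 0.0585) was the call lost. Over all genes, calls for genotype under imiquimod numbered 121, against 17 with those groups alone, 78 with the block, 54 without the 4 hair arrays, 242 with array weights and 340 with the hair covariate, and 45 to 72 without control imiquimod replicate 1, 2, 4 or 5 or knockout imiquimod replicate 1, 2 or 4. Imiquimod in controls had 2404 calls, against 3697 with array weights. Genotype in mock had 2, against 0 to 5, and the difference of responses had 4, against up to 13 with the hair covariate. Signal over background was not measured here, which limits Mmp13, Mmp10 and Mmp8 most, and Timp1 in mock skin.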
